A study of Mus musculus with 28 samples.

Results

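The immediate early genes of the AP-1 and EGR families were followed in microglia sorted from single mouse retinas, before and after an injection of lipopolysaccharide (LPS) into the eye. The 10 genes were the FOS family members Fos, Fosb and Fosl2, the JUN family members Jun, Junb and Jund, the EGR zinc finger genes Egr1, Egr2 and Egr3, and Atf3, and they were taken by symbol from the 40021 genes of the deposited expression table. Of these 10 genes, 7 passed the filter on low values (at least 1 RPKM in at least 5 of the 28 retinas), as did 13164 genes in all, while Fosb, Egr2 and Egr3 did not. RPKM is the number of reads per kilobase of transcript, scaled to the total reads of the library, so levels of different genes can be set in order.

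All mice were male heterozygotes of the Cx3cr1CreER:R26-tdTomato strain on C57BL/6, in which tamoxifen lets a Cre recombinase driven by the Cx3cr1 promoter switch on the red protein tdTomato. Tamoxifen was given to the eye for 3 days from 4 to 5 weeks of age, in every group. Endotoxin-induced uveitis (EIU), a self-limiting inflammation of the eye, was started 4 weeks later with 10 ng LPS per eye, and naïve mice were not injected. From each retina 600 live tdTomato-high cells were sorted and their polyadenylated RNA was sequenced. The 28 retinas, of left and right eyes and of 2 experiments, comprised 10 naïve ones, 6 taken 4 h after LPS, 5 after 18 h and 7 after 2 weeks. Experiment 1 gave 6, 3, 4 and 4 of these retinas and experiment 2 the others. The labels do not tie retinas to mice, so some may come from the same mouse, and p-values measure the spread between retinas. No cells were measured without sorting, so the level in the intact retina and any change during cell preparation cannot be told apart. In bulk samples such as these, fewer cells expressing a gene and less RNA per cell cannot be told apart either.

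AP-1 is a pair of basic leucine zipper proteins, usually a FOS with a JUN protein, that binds short sites in promoters and enhancers. FOS, JUN and EGR genes are immediate early genes: they are transcribed within minutes of a stimulus from factors already present in the cell, and their mRNAs decay quickly. In macrophages and microglia they respond to LPS through Toll-like receptor 4 and MAP kinases, and they are also known to respond to the stress of tissue dissociation.

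The promoters of Fos, Jun and Junb are shown because Fos and Junb passed the test at 4 h and Jun did not. Each sequence is the 250 bases before the RefSeq transcript start on GRCm38.p6, 5′ to 3′ on the strand of the gene, and capitals mark motif matches. Fos lay on the forward strand (chr12:85473640-85473889), with a TATA sequence (TATAAA) whose first base was at -33 and an NF-kappa B motif, on the other strand, at -214. Jun lay on the reverse strand (chr4:95052223-95052472), with TGACATCA, a site for JUN and ATF proteins, at -45. Junb also lay on the reverse strand (chr8:84978749-84978998), and none of the 7 motifs searched was in its window.
Fos: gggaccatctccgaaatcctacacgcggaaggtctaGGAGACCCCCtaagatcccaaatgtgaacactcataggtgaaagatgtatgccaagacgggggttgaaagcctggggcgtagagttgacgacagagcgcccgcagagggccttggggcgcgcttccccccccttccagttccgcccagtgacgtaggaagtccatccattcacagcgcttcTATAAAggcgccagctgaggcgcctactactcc
Jun: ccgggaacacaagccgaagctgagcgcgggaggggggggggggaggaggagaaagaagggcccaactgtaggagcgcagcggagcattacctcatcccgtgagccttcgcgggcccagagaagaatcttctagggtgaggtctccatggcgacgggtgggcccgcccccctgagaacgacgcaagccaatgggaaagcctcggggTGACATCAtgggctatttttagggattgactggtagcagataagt
Junb: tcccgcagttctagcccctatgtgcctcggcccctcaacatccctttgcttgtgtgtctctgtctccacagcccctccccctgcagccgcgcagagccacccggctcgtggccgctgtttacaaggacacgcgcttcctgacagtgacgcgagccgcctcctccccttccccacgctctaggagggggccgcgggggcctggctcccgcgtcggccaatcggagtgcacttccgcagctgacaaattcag
The motifs were searched on both strands of the same window in all 32851 RefSeq promoters of full length. There 12.4% held TATAAA, 2.93% TGACATCA, 7.25% the NF-kappa B motif, 1.47% the CArG box of serum response factor, 6.75% the AP-1 site TGANTCA, 1.55% the cyclic AMP response element TGACGTCA and 4.70% the EGR site GCGNGGGCG. Of the 10 genes, 8 had entries. The window of Fosl2 held an EGR site at -79 and an NF-kappa B motif at -182. The window of Fosb held an EGR site at -50 and an NF-kappa B motif at -188. Egr2 had 5 listed start sites, and the window of the first held an NF-kappa B motif at -117 and no CArG box. That of start site 2 held the CArG box CCTTTTTTGG. The overlapping windows of start sites 3 to 5 held 1 and the same CArG box, CCATATATGG. The windows of Jund (chr8:70697489-70697738) and Atf3 (chr1:191183334-191183583) held none of the motifs. For these genes the RefSeq start lies away from the gene start given below, so the windows do not adjoin those loci. The window of Fosl2 (chr5:32136222-32136471) and those of Egr2 start sites 2 to 5 lay inside the loci given below, so their positions count from a start within the gene. A match is a description of letters and no evidence of binding.

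The retinas differed in depth and in composition. The table gave 7510000 to 19700000 alignments per retina, and 6552 to 11825 genes reached 1 RPKM. The microglial gene P2ry12, which encodes a purinergic receptor, was at 866 to 2714 RPKM in naïve retinas, and 7 of the 14 homeostatic microglial genes were lower at 4 h and 8 at 18 h (fold change of 2 or more and adjusted p no higher than 0.05 in limma), against 4.39% and 1.85% of all tested genes. The neutrophil genes S100a8, S100a9 and Ly6g were listed at 0 in all 10 naïve retinas and at 0.125 RPKM or less in the 6 retinas at 4 h. The summed level of the 10 neutrophil genes was 5.60 to 83.0 RPKM in naïve retinas and 0.322 to 36.9 RPKM at 4 h, and that of 7 monocyte genes 0.130 to 28.5 and 0.236 to 18.1 RPKM. At 18 h S100a8 reached 9.24 RPKM and the lymphocyte gene Nkg7 stood at 5.77 to 86.4 RPKM. Of 9 listed lymphocyte genes only Nkg7 passed the filter, and only with the retinas at 18 h. The summed level at 18 h was 2.86 to 28.8 RPKM for the neutrophil genes and 0.228 to 49.85 RPKM for the monocyte genes. Only 1 of the 10 neutrophil genes and 2 of the 7 monocyte genes passed the filter, and limma called none at 4 h or 18 h. The 2 monocyte genes went opposite ways at 18 h, by -1.93 and 1.88, both at an unadjusted p under 0.05. In naïve retinas the neutrophil sum came from genes of the list other than S100a8, S100a9 and Ly6g, so these sums are no measure of infiltrating cells. The summed level of 9 rod photoreceptor genes was 1589 to 6234 RPKM across the 28 retinas, 2408 to 6234 RPKM in naïve retinas and 1589 to 5829 RPKM at 4 h. In naïve retinas it was 2408 to 4908 RPKM in experiment 1 and 4449 to 6234 RPKM in experiment 2. At 4 h it was 3514, 1589 and 1628 RPKM in experiment 1 and 4751, 4948 and 5829 RPKM in experiment 2. The summed level of 6 erythrocyte genes was 735 RPKM in retina 5 at 4 h, 67.9 RPKM or less in all other retinas, 0 to 43.5 RPKM in naïve retinas and 13.9 to 38.2 RPKM in the other 5 retinas at 4 h. All 4 tested genes of this list were above naïve at 4 h and none was called by limma, with 2 at an unadjusted p under 0.05. Retina 5 at 4 h also had the highest Fos, Fosl2, Fosb and Egr3 of all retinas. Without it Fos and Fosl2 still passed at 4 h (2.32, adjusted p = 0.0273, and 1.42, adjusted p = 3.26e-05). The part of other cells in the levels of the AP-1 and EGR genes was not tested.

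Some retinas also leaned to GC-rich transcripts. This lean, called the GC balance here, was the mean log2(RPKM + 1) of the fifth of tested genes richest in GC minus that of the fifth poorest, and it ran from -0.956 to 0.977. It was highest in naïve retina 1, at 0.977, against -0.956 to 0.082 in the other 9 naïve retinas, and at 4 h it was highest in retina 1, at 0.653. Jund, with 67.1% GC in its longest transcript, and Junb, with 62.6%, were richer in GC than 99.8% and 98.9% of tested genes. The other 8 genes had 51.3 to 57.3% GC.

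In naïve sorted microglia the 3 JUN genes and Atf3 were readily measured, whereas the FOS and EGR genes were low. By median over the 10 naïve retinas the order was Jun (7.40 RPKM), Junb (6.11), Jund (6.10), Atf3 (3.58), Fos (0.570), Fosl2 (0.277) and Egr1 (0.0865), and Fosb, Egr2 and Egr3 had medians of 0. The ranges of neighbours in this order overlapped, and the order differed between experiments. The 6 naïve retinas of experiment 1 had medians of 4.70 RPKM for Jun, 4.66 for Jund, 1.95 for Junb and 0 for Fos, which was under Fosl2 at 0.281. The 4 of experiment 2 had medians of 13.7 RPKM for Junb, 12.4 for Jund, 7.67 for Jun and 1.41 for Fos. Within each retina Jun stood above a median of 66.5% of tested genes, Jund above 64.7%, Junb above 63.3%, Atf3 above 48.4% and Fos above 10.2%. Of the 10 genes, 2 to 6 reached 1 RPKM in a naïve retina, against 4 to 8 at 4 h, 2 to 6 at 18 h and 4 to 6 at 2 weeks.

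**Figure D1:**
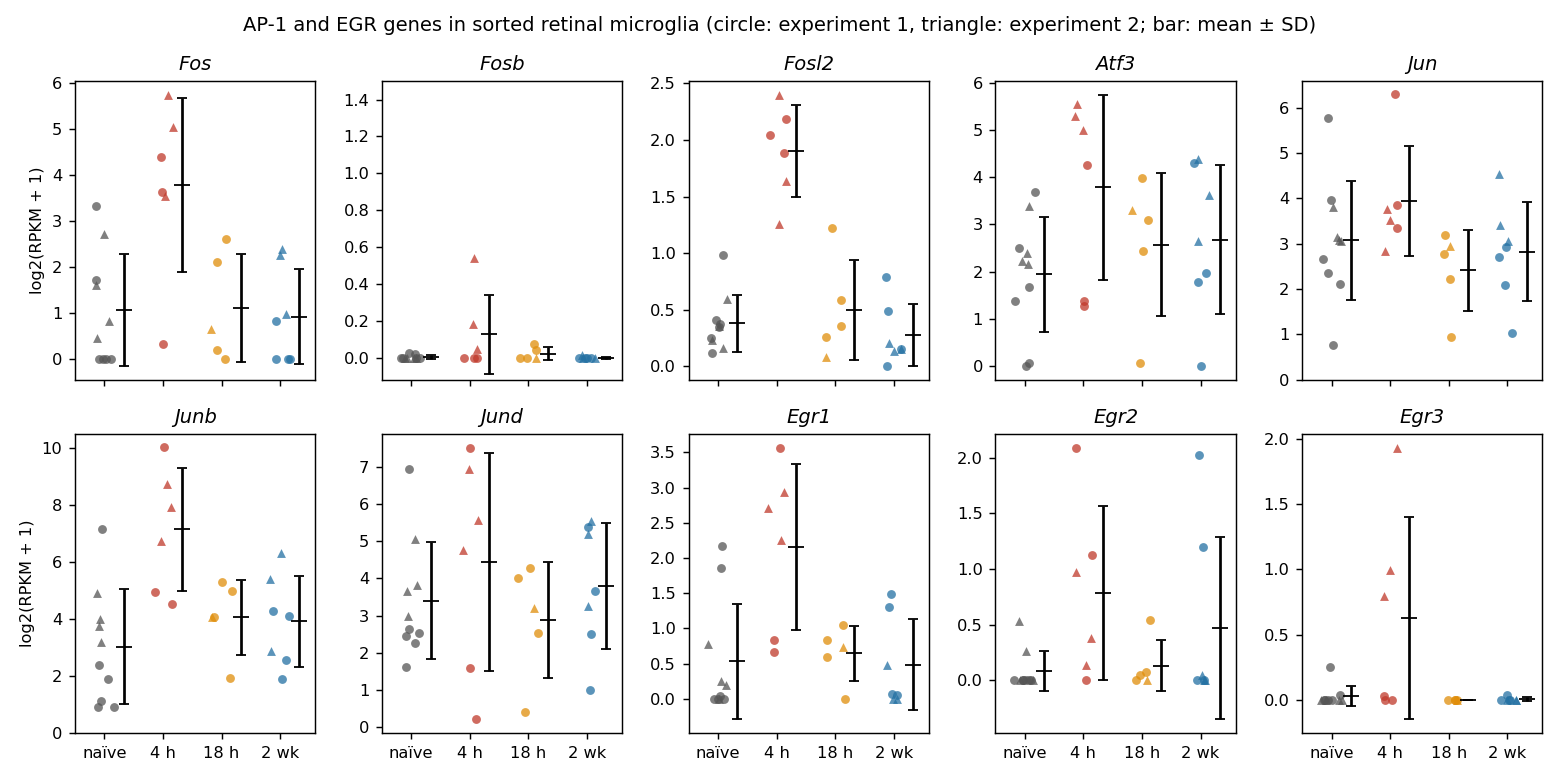
Level of each of the 10 genes as log2(RPKM + 1) by group (naïve, then EIU of 4 h, 18 h or 2 wk), with a point per retina, circles for experiment 1, triangles for experiment 2 and bars for the mean ± SD of the group. Fosl2 is the gene whose 6 retinas at 4 h all stand above its 10 naïve retinas, while for Jun and Jund the groups overlap widely.

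At 4 h, 4 of the 7 tested genes were higher than in naïve retinas, namely Fos, Fosl2, Junb and Egr1, and none was lower. Fosl2 passed the filter only with the retinas at 4 h, so its place in these counts already rested on that group. A gene was called where limma on log2(RPKM + 1) gave a fold change of 2 or more and an adjusted p no higher than 0.05 (Benjamini-Hochberg over all 13164 genes), and 8.08% of all tested genes met it at 4 h, 3.68% as higher and 4.39% as lower. The median difference over the 7 genes was 1.63 on the log2 scale, against -0.11 over all tested genes. Jun, Jund and Atf3 were above naïve on average but did not pass. The question was which of these fast-responding regulators were still raised in early EIU, at peak infiltration and after inflammation had settled.

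**Figure D2:**
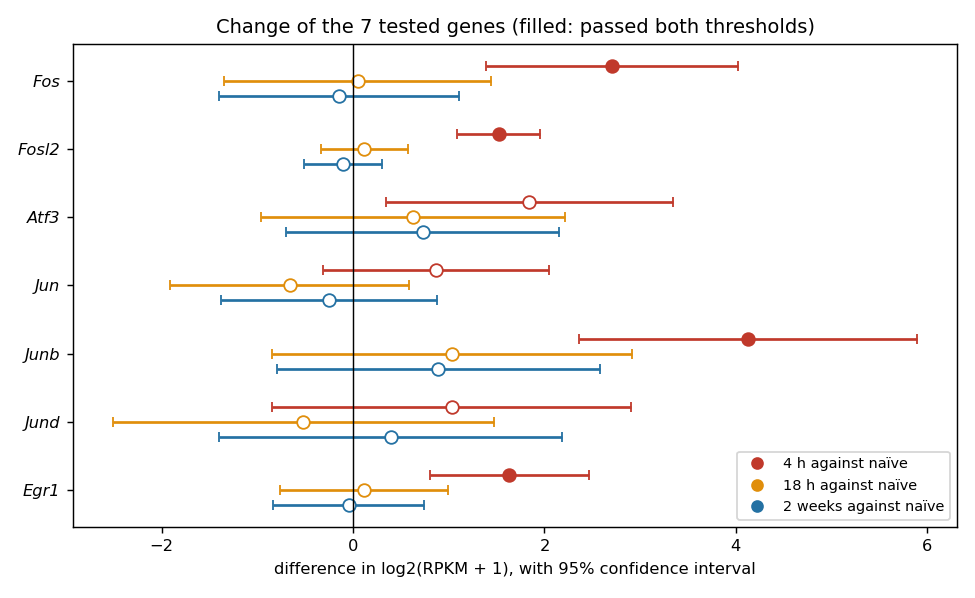
Difference in log2(RPKM + 1) from naïve retinas for the 7 tested genes in each EIU group, with 95% confidence intervals from limma and filled points for changes that passed both thresholds. The 4 filled points are Fos, Fosl2, Junb and Egr1 at 4 h, and every interval at 18 h and 2 weeks crosses 0.

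Among FOS genes, Fos (chr12:85473890-85477273, forward strand) encodes the founding AP-1 partner. In naïve retinas it was at 0 to 9.01 RPKM with a median of 0.570, and it was listed at 0 in 4 of 10. At 4 h it was at 19.9, 0.258, 11.3, 10.6, 52.4 and 31.7 RPKM in retinas 1 to 6. Retina 2 lay within the naïve range, and the other 5 retinas lay above all naïve retinas. The difference was 2.71 ± 0.645 (SE) on the log2 scale, with an adjusted p of 0.00499 by limma. At 18 h Fos was at 3.27, 0, 5.10, 0.150 and 0.565 RPKM and at 2 weeks at 0 to 4.21 RPKM with a median of 0.757. All retinas of these later groups lay within the naïve range. The difference was 0.05 ± 0.684 at 18 h and -0.15 ± 0.615 at 2 weeks, with adjusted p of 0.984 and 1.

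Fosl2 (chr5:32135801-32157842, forward strand) encodes FRA-2, a FOS protein that lacks the strong activation domain of c-FOS. Its naïve level was 0.0812 to 0.972 RPKM with a median of 0.277, and at 4 h it was at 2.69, 3.13, 3.54, 1.39, 4.28 and 2.11 RPKM. All 6 retinas at 4 h were above all 10 naïve retinas, a separation met by 1.65% of tested genes and by none of the other 6 tested genes here. Fosl2 passed the filter through the 4 h group, since 6 of the 7 retinas with at least 1 RPKM were from 4 h, so its entry into the test already rested on that group. The difference was 1.52 ± 0.211 (SE), with an adjusted p of 4.47e-06 by limma. About 145 to 381 alignments stood behind each value at 4 h. At 18 h Fosl2 was at 0.277, 0.504, 0.192, 1.33 and 0.0549 RPKM, and retina 4 of that group was the highest outside 4 h. At 2 weeks it was at 0 to 0.731 RPKM. The differences from naïve were 0.12 ± 0.223 and -0.11 ± 0.201, with adjusted p of 0.845 and 1.

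Fosb (chr7:19302696-19310051, reverse strand) encodes a FOS protein best known from neurons. It was listed at 0 in 20 of the 28 retinas. Its highest level was 0.457 RPKM in retina 5 at 4 h, which corresponds to about 23 alignments, and it was above 0 in all 3 retinas of experiment 2 at 4 h and in none of the 3 of experiment 1. Fitted without the filter, over 37928 genes, the difference at 4 h was 0.12 ± 0.050 with an adjusted p of 0.309.

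Atf3 (chr1:191170296-191218039, reverse strand) encodes a stress-induced repressor that pairs with JUN proteins and restrains LPS-induced cytokine genes. In naïve retinas it was at 0 to 11.8 RPKM with a median of 3.58. At 4 h it was at 18.2, 1.41, 1.61, 45.7, 30.8 and 37.9 RPKM. Retinas 2 and 3, both of experiment 1, lay within the naïve range and the other 4 lay above it. The difference was 1.84 ± 0.732 (SE), with an adjusted p of 0.128 by limma, and it passed in experiment 2 alone (2.73, adjusted p = 0.0013) but not in experiment 1 alone (0.76, adjusted p = 0.825). Without retina 2 at 4 h it also passed (2.35, adjusted p = 0.0472), as it did with detected genes as a covariate (adjusted p = 0.00917), after quantile normalisation (adjusted p = 0.039) and on untransformed RPKM (adjusted p = 0.0283). It was at 0.0409 to 14.7 RPKM at 18 h and 0 to 19.9 RPKM at 2 weeks, with differences of 0.63 ± 0.777 and 0.73 ± 0.699 and adjusted p of 0.737 and 1.

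Among JUN genes, Junb (chr8:84974484-84978718, reverse strand) had the largest difference of the 7 tested genes at 4 h. JUNB is a JUN protein that pairs with FOS and BATF proteins and is a weaker activator than c-JUN at many sites. In naïve retinas it was at 143 RPKM in retina 1 and at 0.878 to 28.8 RPKM in the other 9. At 4 h it was at 1039, 22.2, 29.6, 105, 426 and 240 RPKM. Retinas 1, 5 and 6 were above all naïve retinas, and of the other 3, retina 2 was above 8 and retinas 3 and 4 above all 9 of the naïve retinas other than retina 1. The difference was 4.12 ± 0.867 (SE), with an adjusted p of 0.00149 by limma, but 0.0631 on untransformed RPKM. At 18 h Junb was at 30.3, 15.7, 38.1, 2.76 and 15.6 RPKM and at 2 weeks at 2.68 to 79.3 RPKM. These later levels lay within the naïve range. The differences were 1.03 ± 0.920 and 0.89 ± 0.827, with adjusted p of 0.615 and 1.

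Jun (chr4:95049034-95052222, reverse strand) encodes c-JUN, the main target of JUN N-terminal kinase. Its naïve level was 0.698 to 53.9 RPKM with a median of 7.40, and at 4 h it was at 78.4, 13.4, 9.25, 6.16, 10.6 and 12.7 RPKM. Retina 1 was the only one at 4 h above all naïve retinas, and naïve retina 1 was itself the highest of its group. The difference was 0.87 ± 0.578 (SE), with an adjusted p of 0.426 by limma and a 95% interval from -0.31 to 2.05. Jun was at 0.912 to 8.19 RPKM at 18 h and 1.06 to 22.2 RPKM at 2 weeks, with differences of -0.66 ± 0.613 and -0.25 ± 0.551 and adjusted p of 0.632 and 1.

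Jund (chr8:70698949-70700616, forward strand) encodes the JUN protein that most cells express without a stimulus. It was at 2.09 to 122.2 RPKM in naïve retinas, and at 182, 0.156, 2.03, 26.1, 122.5 and 46.2 RPKM at 4 h. The 6 retinas at 4 h spanned more than the naïve range, with 2 above and 2 below all naïve retinas. The difference was 1.03 ± 0.919 (SE), with an adjusted p of 0.581 by limma. The interval, from -0.84 to 2.91, holds both no change and a large one. Jund was at 0.317 to 18.3 RPKM at 18 h and 0.994 to 45.3 RPKM at 2 weeks, with differences of -0.52 ± 0.975 and 0.39 ± 0.877 and adjusted p of 0.844 and 1.

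Among EGR genes, Egr1, on chromosome 18, encodes the zinc finger protein that binds GC-rich promoter sites and is the EGR member best known in macrophages. It was at 0 to 3.51 RPKM in naïve retinas with a median of 0.0865, and listed at 0 in 4 of 10. At 4 h it was at 10.8, 0.580, 0.775, 3.76, 5.57 and 6.63 RPKM. Retinas 2 and 3 were within the naïve range and the other 4 were above it. The difference was 1.63 ± 0.407 (SE), with an adjusted p of 0.00768 by limma, and 0.0661 with the replicate number as a block. At 18 h Egr1 was at 1.06, 0, 0.507, 0.786 and 0.671 RPKM and at 2 weeks at 0 to 1.80 RPKM, with differences of 0.11 ± 0.431 and -0.05 ± 0.388 and adjusted p of 0.928 and 1.

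Egr2 (chr10:67535475-67542188, forward strand), a regulator of myelination and of macrophage states, was listed at 0 in 8 of 10 naïve retinas. At 4 h it was at 3.25, 0, 1.18, 0.303, 0.966 and 0.0991 RPKM, and at 2 weeks it was at 3.06 and 1.29 RPKM in retinas 1 and 2 and at 0.0301 RPKM or less in the other 5. Fitted without the filter, the difference at 4 h was 0.70 ± 0.288, with an adjusted p of 0.323.

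Egr3 (chr14:70077203-70082614, forward strand), a target of calcium and antigen receptor signals in lymphocytes, was listed at 0 in 21 of 28 retinas. At 4 h it was at 0, 0.0197 and 0 RPKM in the retinas of experiment 1 and at 0.988, 2.82 and 0.739 RPKM in those of experiment 2. The latter 3 were the highest of all 28 retinas. About 151 alignments stood behind the highest value. Fitted without the filter, the difference at 4 h was 0.60 ± 0.181 with an adjusted p of 0.087. The response in experiment 2 exceeded that in experiment 1 by 1.28 ± 0.203 with an adjusted p of 0.00983 by limma. Both fits share 1 spread over all groups, and Egr3 was at or near 0 in most of them. The SD of its log2(RPKM + 1) was 0.61 in the experiment 2 retinas at 4 h and 0.1 in the naïve retinas of experiment 1. The SE and adjusted p therefore understate the spread among the retinas that carry the difference. Egr3 was the only one of the 10 genes for which the difference between experiments in the 4 h response passed, and it entered only the fit without the filter. Rod photoreceptor RNA was also higher in the experiment 2 retinas at 4 h, and the part of other cells in the Egr3 values was not tested.

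None of the 7 tested genes was called at 18 h or at 2 weeks. Across all tested genes 4.69% were called at 18 h and 0.0076% at 2 weeks by the same limma test, and for the 7 genes no unadjusted p was under 0.05 at either time. Their median difference from naïve was 0.11 at 18 h and -0.05 at 2 weeks, against -0.08 and 0.07 over all tested genes. The intervals were wide, and for Junb they reached from -0.84 to 2.91 at 18 h and from -0.80 to 2.58 at 2 weeks.

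Between 18 h and 4 h, tested directly, Fos and Fosl2 were lower at 18 h, 2 of the 7 genes, where 5.42% of all tested genes were called, 2.51% as lower. Fos fell by 2.66 on the log2 scale (SE 0.756, adjusted p = 0.0309 by limma) and Fosl2 fell by 1.40 (SE 0.247, adjusted p = 0.000313). Here too Fosl2 was tested only because of its level in the retinas at 4 h. Junb and Egr1 differed by -3.09 ± 1.017 and -1.52 ± 0.477 without passing, with adjusted p of 0.0729 and 0.0572. Junb passed after removal of GC content and length (-2.97, adjusted p = 0.00588), with detected genes as a covariate (adjusted p = 0.00628) or after quantile normalisation (adjusted p = 0.0424), and with a pseudocount of 10 (adjusted p = 0.0237) it was called in place of Fosl2. The Fos call was lost when any of retinas 1, 5 and 6 at 4 h or 2, 4 and 5 at 18 h was left out, with adjusted p of 0.0744 to 0.106. Junb and Egr1 passed when naïve retina 1, or retina 2 or 3 at 4 h, was left out, with adjusted p of 0.033 to 0.0465 for Junb and 0.0171 to 0.0426 for Egr1, and Egr1 also passed without naïve retina 3 (adjusted p = 0.0353).

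**Figure D3:**
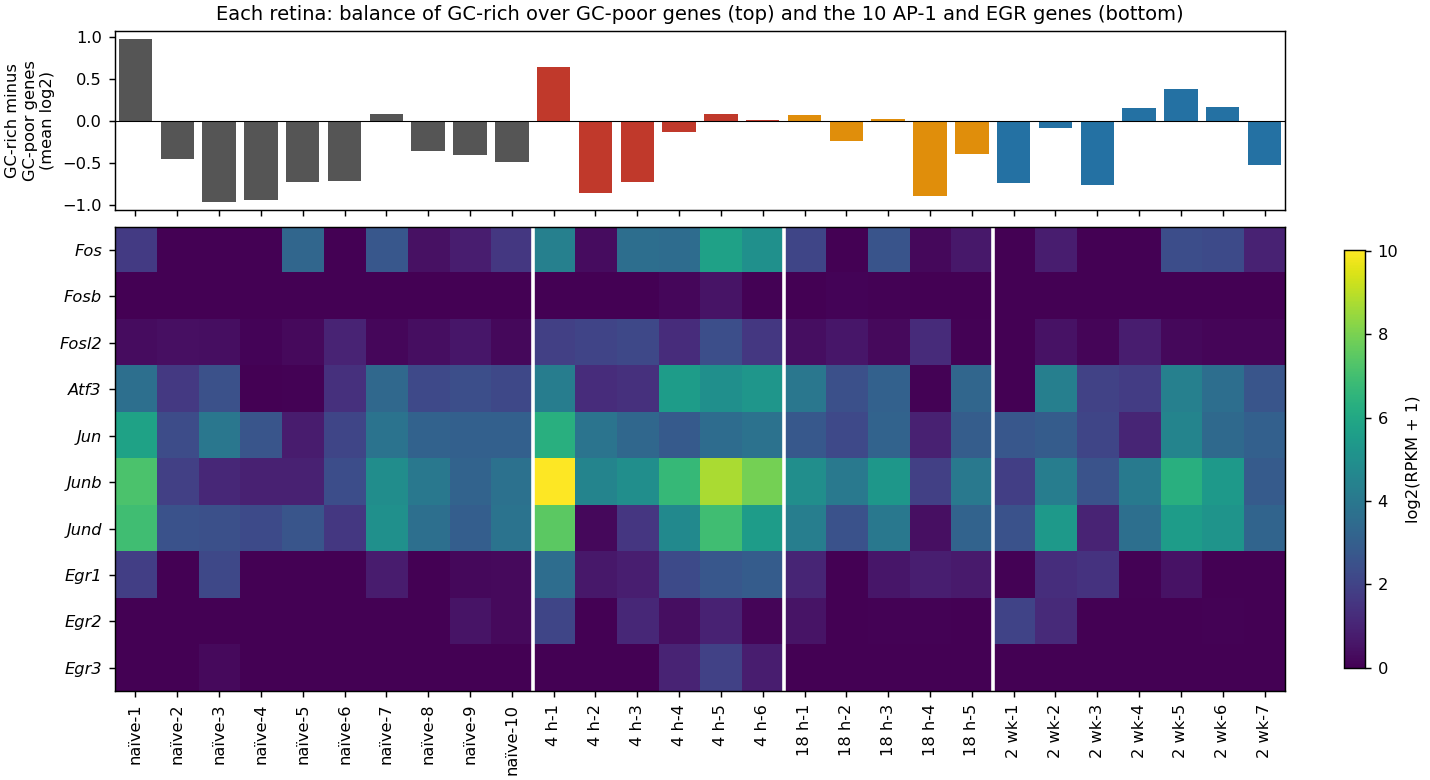
Each of the 28 retinas in a column, with the GC balance (mean log2 of GC-rich minus GC-poor genes) as bars above and log2(RPKM + 1) of the 10 genes as colours below. Naïve retina 1 has the highest GC balance, 0.977, and the highest Jun, Junb and Jund of its group, and at 4 h retinas 2 and 3 have the lowest GC balance and the lowest Junb and Jund.

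The spread within groups followed the GC balance most closely for Junb and Jund in both groups and for Egr1 at 4 h, and least for Fosl2. Over the 10 naïve retinas Pearson's r with the GC balance was 0.94 for Junb, 0.94 for Jund, 0.73 for Atf3, 0.72 for Jun, 0.39 for Fos, 0.39 for Egr1 and -0.11 for Fosl2, and over the 6 retinas at 4 h it was 0.98 for Junb, 0.98 for Egr1, 0.96 for Jund, 0.75 for Atf3, 0.70 for Fos, 0.64 for Jun and -0.19 for Fosl2. Each point is a library, in which all genes share depth and base composition, so these are descriptions. Among the naïve retinas Junb and Jund themselves went together with r = 0.92.

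Some retinas at 4 h can be set beside naïve retinas of like GC balance. In these few retinas Junb was higher at 4 h, whereas Jund was lower in some and higher in another. Retinas 2 and 3 at 4 h had balances of -0.858 and -0.724, and naïve retinas 3 to 6 had -0.956 to -0.714. All of these were of experiment 1. The former had 8254 and 9331 genes at 1 RPKM or more and the latter 7088, 6552, 8137 and 8562. The part of the GC balance in the differences was not tested. Junb was at 22.2 and 29.6 RPKM in the former and at 1.17, 0.878, 0.883 and 4.18 RPKM in the latter. Jund was at 0.156 and 2.03 RPKM in the former and at 4.51, 3.77, 5.22 and 2.09 RPKM in the latter, so that retina 3 lay just under the lowest of them. Retina 5 at 4 h and naïve retina 7 shared a balance of 0.082, and there Jund was at 122.5 and 32.05 RPKM. With the trend of each retina on GC content and transcript length removed, over 12954 genes, Junb differed at 4 h by 3.96 ± 0.583 (adjusted p = 1.02e-05), Fos by 2.62 ± 0.538 (adjusted p = 0.000968), Fosl2 by 1.66 ± 0.273 (adjusted p = 5.38e-05) and Egr1 by 1.64 ± 0.390 (adjusted p = 0.00462) in limma. Atf3 then passed, at 1.76 ± 0.555 (adjusted p = 0.0395), and Jun and Jund did not, at 0.77 and 0.87. Without naïve retina 1 and retina 1 at 4 h together, 4 of the 7 genes were called.

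**Figure D4:**
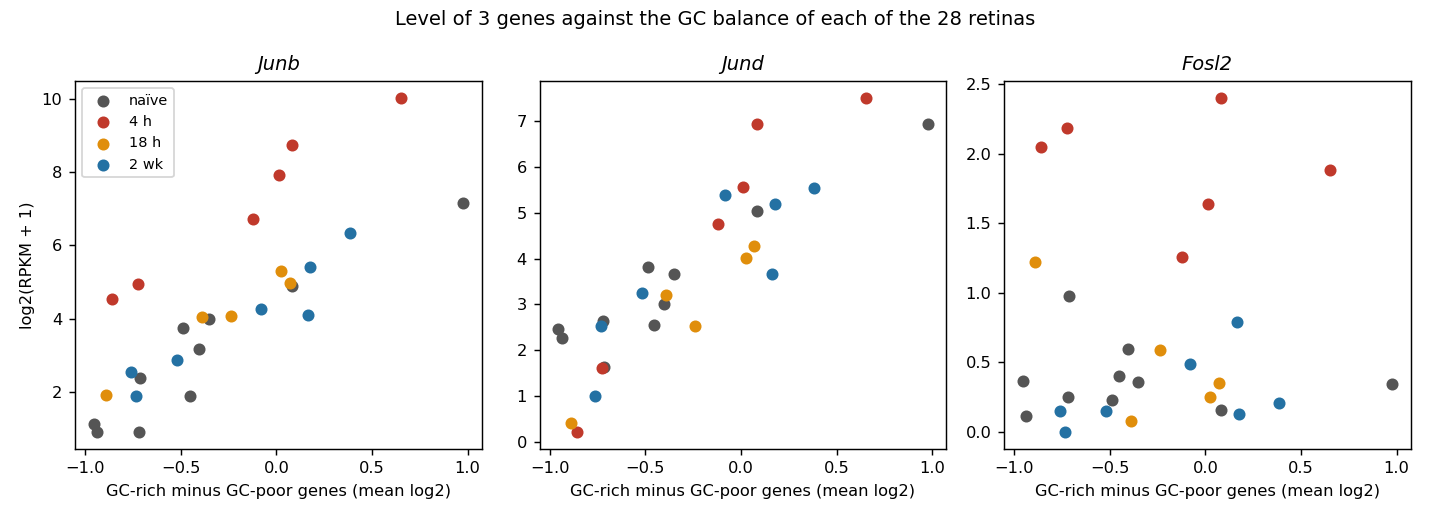
Level of Junb, Jund and Fosl2 as log2(RPKM + 1) against the GC balance of each of the 28 retinas, coloured by group. Junb at 4 h lies above retinas of like GC balance in the other groups. Jund at 4 h holds both the lowest and the highest value of the 28 retinas. Fosl2 at 4 h is high at every GC balance met in that group.

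The experiments were compared because the labels name them. None of the 7 genes passed the test of a difference between experiments in naïve level, in the 4 h response or in the 2-week response, where 1.79%, 0.0988% and 0% of all tested genes had an adjusted p of at most 0.05 in limma. In experiment 1 alone Fosl2 was the 1 gene called at 4 h (1.63, adjusted p = 0.00865). There Fos differed by 1.94 (adjusted p = 0.337), Junb by 4.10 (adjusted p = 0.1) and Egr1 by 1.01 (adjusted p = 0.583), over 3 retinas at 4 h. In experiment 2 alone Fos (3.37, adjusted p = 0.00453), Fosl2 (1.43, adjusted p = 0.00442), Junb (3.84, adjusted p = 0.00567), Egr1 (2.33, adjusted p = 0.000223) and Atf3 passed. No 18 h response was compared between experiments, since 1 retina at 18 h came from experiment 2.

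Of 31 other immediate early genes tested, 20 were called at 4 h, where 8.08% of all tested genes were, 17 higher and 3 lower (3.68% and 4.39% of all tested genes). The median difference was 1.72 on the log2 scale. Csrnp1, Dusp2, Dusp5 and Nr4a3, 4 of the 17, passed the filter only with the retinas at 4 h. Dusp1 and Dusp2, phosphatases that switch off MAP kinases, were higher by 7.29 ± 0.671 and 6.85 ± 0.493. Dusp1 was at 0 to 8.11 RPKM in naïve retinas and at 178 to 1747 RPKM at 4 h, and the groups did not overlap. Of all tested genes, 1.65% had every retina at 4 h above all naïve retinas. Gadd45b, a stress-response gene, was higher by 7.32, Ppp1r15a, which restarts translation after stress, by 6.06, Ier3 by 5.03 and Ier2 by 3.95. Zfp36, whose protein destabilises AU-rich mRNAs such as those of cytokines and of Fos, was higher by 3.61.

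The 3 that were lower were Dusp6, the phosphatase of ERK kinases, which fell by 3.90 (SE 0.413), the small GTPase gene Rhob, which fell by 2.19, and the transcription factor gene Klf2, which fell by 1.76. Dusp6 was at 36.1 to 94.7 RPKM in naïve retinas and at 0.0277 to 8.14 RPKM at 4 h, so the groups did not overlap. Of all tested genes, 1.42% had every retina at 4 h below all naïve retinas. At 18 h 2 of the 31 genes were called, where 4.69% of all tested genes were, Gadd45b higher by 2.58 (SE 0.580) and Rhob lower, by -2.92 (SE 0.616). At 2 weeks limma called 0 of them, and 1 had an unadjusted p under 0.05. Nr4a1, Nr4a2, Arc and Npas4, which mark recent activity in many cells, did not pass the filter. Nr4a1 had a median of 0.173 RPKM in naïve retinas and 1.73 RPKM at 4 h.

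**Figure D5:**
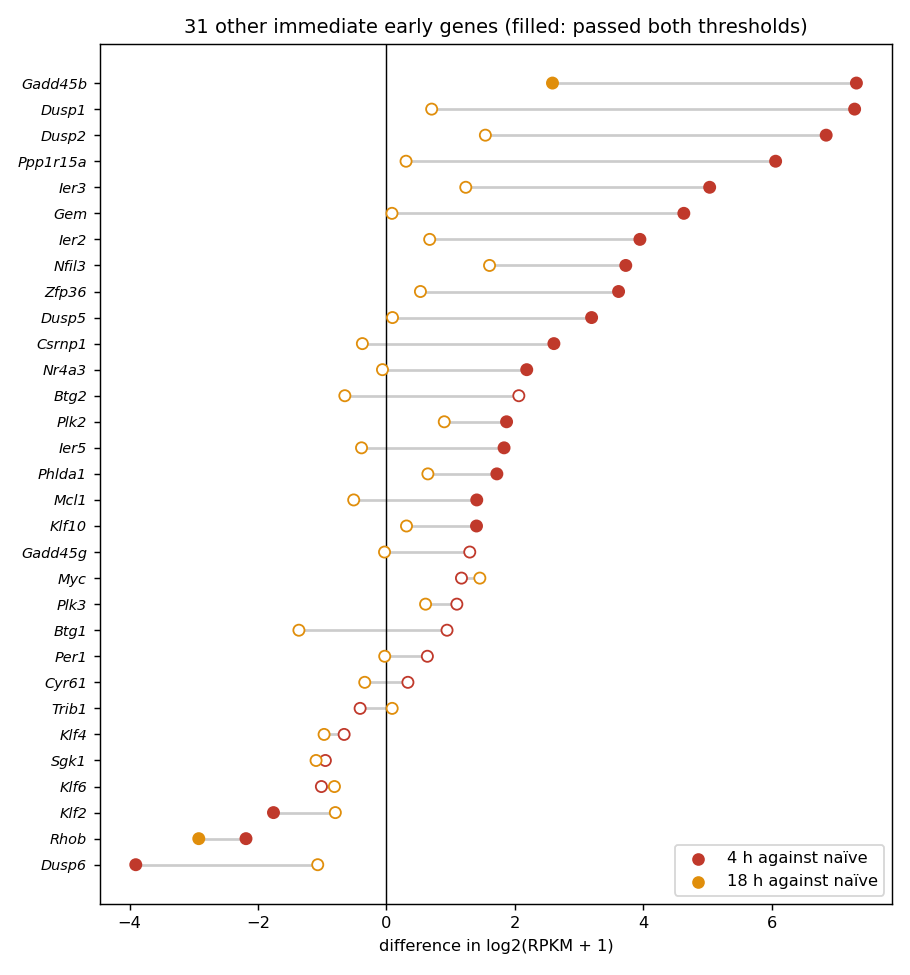
Difference in log2(RPKM + 1) from naïve retinas at 4 h and 18 h for the 31 other immediate early genes tested, sorted by the 4 h value, with filled points for changes that passed both thresholds. There are 17 filled points above 0 and 3 below 0 at 4 h, and at 18 h the filled points are Gadd45b and Rhob.

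Among 19 tested partners and relatives of AP-1, 5 were higher at 4 h, where 3.68% of all tested genes were, and none was lower, with a median difference of 0.74. They were Batf, whose protein pairs with JUN proteins in immune cells (4.75 ± 0.637), Cebpb (2.94 ± 0.694), the small MAF gene Maff (2.40 ± 0.330), the repressor gene Jdp2 (2.33 ± 0.580) and Fosl1 (1.62 ± 0.427), which encodes the remaining FOS protein, FRA-1. Maff and Fosl1 passed the filter only with the retinas at 4 h, so their place in the test already rested on that group. Naïve retinas were at 0 to 0.487 RPKM for Maff and 0 to 0.220 RPKM for Fosl1. Batf was also the 1 gene called at 18 h, at 3.04 ± 0.675. Of the EGR co-repressor genes, Nab1 and Nab2 were tested and not called at 4 h, at 1.29 ± 0.541 and 1.25 ± 0.417.

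Upstream of these genes, 0 of 3 tested genes of serum response factor and its partners were called by limma at 4 h, and 0 had an unadjusted p under 0.05. Of 21 tested MAP kinase pathway genes, 3 were higher and 2 lower, against 3.68% and 4.39% of all tested genes, with a median of 0.10. The kinase genes Map3k8 (4.01), Map2k3 (2.71) and Mapkapk2 (2.31) were higher, and Mapk14, which encodes p38 alpha, and Rps6ka1 fell by 1.88 and 1.94. Mapk14 was also lower at 18 h, at -1.65. Among 17 tested genes known as targets of AP-1 or EGR proteins, 12 were higher at 4 h and 8 at 18 h, against 3.68% and 2.84% of all tested genes, with medians of 2.41 and 1.37. Of these, Mmp13 and Ptgs2 at 4 h and Timp1 at 18 h passed the filter only with the retinas of that time. The cytokine genes Tnf and Il1b were higher by 9.26 and 8.91 at 4 h, and Ccl2 by 5.25 at 4 h and 6.94 at 18 h. Many of these genes are also known NF-kappa B targets, and which factor acted on them was not tested.

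Heat shock and chaperone genes, some of which can mark stress of the cells during preparation, had a median difference of 0.17 at 4 h. Then 1 of 14 was higher, against 3.68% of all tested genes, namely Hspa5 at 1.08 ± 0.349. Stress during preparation was not tested. At 18 h Hsp90ab1 (1.80), Hspe1 (1.69) and Hspa5 (1.57) were higher, 3 of 14 against 2.84% of all tested genes. The summed level of the 14 genes was 542 to 1524 RPKM in naïve retinas and 977 to 1744 RPKM at 4 h.

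The genes most like each AP-1 or EGR gene were listed by Pearson's r of log2(RPKM + 1) over the 28 retinas, which include the group differences. Junb went with Zfp36 (0.96), Cebpb (0.93) and Map2k3 (0.93), and Fosl2 with Ctdnep1 (0.93), Ptgs2 (0.92) and Gm45266 (0.91). Fos went with Nfkbid (0.87), Pmaip1 (0.85) and Zfp36 (0.85), Egr1 with Phlda1 (0.81), Maff (0.81) and Nab2 (0.80), and Atf3 with Rasgef1b (0.87), 6330537M06Rik (0.85) and Reep6 (0.85). Ucp2 (0.91) and Ckb (0.91) were among the genes most like Jund, and Jun went with Il17ra (0.83), Riox1 (0.82) and Slc25a22 (0.81).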

How the data were processed

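The values are from mRNA-Seq of microglia sorted from 28 retinas, each taken as 1 sample. Per the study's methods and the submitters' processing notes, the authors aligned reads to mm10 with STAR 2.5.3a, quantified Ensembl release 89 transcripts by Partek's expectation-maximisation and deposited RPKM per gene, so very low values, zeros included, may come from the estimation itself. Depth is the number of alignments that the table lists, and alignments behind a value were approximated from RPKM, the longest GENCODE transcript and that number. The authors' tables of differentially expressed genes at 4 h and 18 h (p-values, ratios, fold changes) were not used.

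Values were taken as log2(RPKM + 1), which understates changes of low genes. Genes with at least 1 RPKM in at least 5 retinas were tested with limma 3.58.1 in R 4.3.3 (mean-variance trend), in 1 fit of the 4 groups, or of the 8 group and experiment combinations for differences between experiments. The 4 lines that share a symbol were kept apart. The script was tested on simulated data. The members, gene lists, motifs and tests were chosen with earlier results of these data known. The named genes were the 10 members, any gene of a pathway list called at 4 h, 18 h or 2 weeks, and the 3 genes most correlated with each tested member, of which 1 is not reported here. Others (Nab1, Nab2, the nuclear receptor and neuronal genes that failed the filter, and markers) were named after their values were seen. Coordinates are from GENCODE M21 and promoters from RefSeq, on the same build. GC content was available for 98.4% of tested genes. Alternatives changed the pseudocount, filter, scaling, covariates, block, experiment and retinas.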

Additional observations from a re-analysis of the deposited data

Results flagged for a closer look

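In 15 of the 39 sets of values formed by the 10 genes and 4 groups (all those not listed entirely at 0), 1 retina stood far from the others of its group by Dixon's criterion on RPKM. On the log2(RPKM + 1) scale this held for 7 of 39. The criterion assumes normally distributed values, and many sets held zeros, so these counts cannot be set against a chance rate. Where all other retinas were at 0, as for Fosb and Egr3 at 2 weeks, any value above 0 was flagged. About 0.72 and 1.1 alignments stood behind those 2 values. Naïve retina 1 was the high one for Jun (53.9 RPKM), Junb (142.7 RPKM) and Jund (122.2 RPKM), and it also had the highest GC balance, 0.977. Retina 1 at 4 h, with the highest GC balance at 4 h, 0.653, was high for Jun (78.4 RPKM) and Egr2 (3.254 RPKM), and retina 5 at 4 h for Fosb (0.4565 RPKM) and Egr3 (2.822 RPKM). The part of the GC balance in these values was not tested. At 2 weeks retina 5 was high for Jun (22.22 RPKM), retina 1 for Egr2 (3.062 RPKM) and Egr3 (0.02293 RPKM), and retina 7 for Fosb (0.01234 RPKM). The remaining high retinas were naïve retina 6 for Fosl2 (0.9717 RPKM), naïve retina 9 and 18 h retina 1 for Egr2 (0.4463 and 0.4581 RPKM) and naïve retina 3 for Egr3 (0.1865 RPKM).

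The responses at 4 h and at 18 h differed by the direct test in limma for Fos, by -2.66 on the log2 scale with an adjusted p of 0.0309, and for Fosl2, by -1.40 with an adjusted p of 0.000313. Fos was above all naïve retinas in 5 of 6 retinas at 4 h and in none of 5 at 18 h, and Fosl2 in 6 of 6 and 1 of 5. Since Fosl2 passed the filter only with the retinas at 4 h, its place in this test already rested on them.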

How the results depend on the processing

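Leaving out each of the 28 retinas in turn kept the calls of Fos, Fosl2, Junb and Egr1 at 4 h, with 4 to 5 genes called, 0 called at 18 h and 2 weeks, and 17 to 21 other immediate early genes called at 4 h. The 4 h count fell from 4 to 2, without Fosl2 and Egr1, with a pseudocount of 10 or a filter at RPKM 5, stayed at 4 on untransformed RPKM, with Atf3 in place of Junb, rose to 5 through Atf3 with detected genes as a covariate, after quantile normalisation, after removal of GC content and length and in experiment 2 alone, and fell to 1 in experiment 1 alone, where that of the other immediate early genes fell from 20 to 12. The 18 h against 4 h count, 2, became 1 with a pseudocount of 0.1, without the filter, with a filter at RPKM 5 or with only the groups compared, 0 in experiment 1 alone, and 4 with the number of detected genes as a covariate or after quantile normalisation. It was 3 through Egr1 with eye side as a covariate, in experiment 2 alone or on untransformed RPKM, 3 through Junb after removal of GC content and length, and 2 with a pseudocount of 10, with Junb in place of Fosl2, and it was 1 to 4 with a retina left out. The other immediate early genes called at 18 h, 2, became 1 with a pseudocount of 10 or in experiment 1 alone, 6 with detected genes as a covariate, and 0 on untransformed RPKM or in experiment 2 alone. Experiment 2 held 1 retina at 18 h, assumed to vary like the other groups, so its values at 18 h rest on that retina. Without the filter 1 gene, Egr3, passed for a difference in 4 h response between experiments, against 0 with it. The SE of that fit understates the spread of Egr3 at 4 h. At a filter of RPKM 5 Fosl2 and Egr1 were left out of the test. With a pseudocount of 10 they missed only the fold threshold at 4 h, at 0.313 and 0.422 (adjusted p = 1.58e-06 and 0.0054 in limma). Fosl2 did so between 18 h and 4 h as well, at -0.294 (adjusted p = 9.54e-05). The causes were not tested.

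Same-numbered retinas of different groups had a median r of 0.035 in their deviations from the group mean, with 15 of 34 pairs above 0.1. Retinas of other numbers had 0.005, with 93 of 253 pairs above 0.1. The main fit did not pair retinas by number, and these correlations cannot exclude a pairing. With the replicate number as a block 3 genes were called at 4 h, without Egr1, 0 at 18 h and 2 weeks, and 2 between 18 h and 4 h.

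Changes of sign were met only for differences that did not pass in any fit. For Fos at 18 h they were -0.008 (pseudocount 10), -0.04 (eye side), -0.08 (equal summed RPKM, which moved the median of all genes from -0.08 to -0.26), -0.114 (GC content and length removed), -0.753 (experiment 2 alone), -0.14 (untransformed) and -0.328 to 0.324 with a retina left out. For Egr1 at 18 h they were -0.008 (pseudocount 10), -0.114 (replicate block), -0.06 (experiment 1 alone) and -0.253 (untransformed), and at 2 weeks 0.03 (pseudocount 0.1), 0.017 (quantile), 0.046 (experiment 1 alone) and -0.214 to 0.135 with a retina left out. Others were Fosl2 at 18 h, -0.258 (experiment 2 alone) and -0.063 to 0.223 with a retina left out, Junb at 18 h, -0.083 (untransformed), Jund at 18 h, -0.865 to 0.104 with a retina left out, Fos at 2 weeks, 0.464 (experiment 2 alone) and -0.393 to 0.102 with a retina left out, Jun at 2 weeks, 0.389 (experiment 2 alone) and -0.536 to 0.05 with a retina left out, and Atf3 between 18 h and 4 h, 0.086 (experiment 1 alone). Removal of GC content and length, and leaving out both first retinas, were chosen after seeing the data. The depth behind low values limits Fosb, Egr2 and Egr3, for which 1 alignment was worth 0.0129 to 0.0449 RPKM.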
